A study of Mus musculus with 18 samples.

Results

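Fgfr1op2, Dctn4 and Txnl4a were each read by more than 1 probe on a mouse expression array, and in each gene the probes differed in how they responded to hypoxia of the newborn brain. The 3 genes were taken as members because of that disagreement, among 393 genes with at least 2 probes above the detection filter and 8127 genes named with at least 1 probe. The members' probes are all those whose identifier, read as a mouse NCBI gene number, belongs to 1 of the 3 genes, and there are 7 of them. The members were chosen by the log2 changes of their probes. For Fgfr1op2 the changes that chose it set CCH beside control and CIH beside CCH, for Dctn4 they set CIH beside both control and CCH, and for Txnl4a no single comparison can be named. Values from these comparisons, and from the remaining one of each triplet of CCH, CIH and control, which follows from them, are therefore given as a description with no test.

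Total RNA of hippocampus and cortex came from male CD-1 mice aged 16 days, per the labels. CCH mice had lived in chronic consistent hypoxia and CIH mice in chronic intermittent hypoxia, for 2 weeks from postnatal day 2, and control mice received neither. The labels state neither the oxygen levels nor the pattern of the intermittent exposure. Each of the 6 groups (CCH, CIH and control hippocampus, then CCH, CIH and control cortex) has 3 arrays, 18 in all, and nothing says whether an array holds 1 animal or a pool, so the errors below measure the spread between these samples.

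Fgfr1op2 encodes a coiled-coil partner of the STRIPAK complexes, assemblies that join a phosphatase to kinases. Dctn4 encodes the p62 subunit at the pointed end of dynactin, the adaptor that lets the dynein motor carry cargo along microtubules, in axons among other places. Txnl4a encodes the small thioredoxin-fold protein of the U5 snRNP, which enters the spliceosome as part of the tri-snRNP. RefSeq (GRCm38.p6) places Fgfr1op2 on chromosome 6 and both Dctn4 and Txnl4a on chromosome 18. A probe on a bead array reads a short stretch of a transcript, so probes of 1 gene can lie in different exons or ends of its transcripts. Where the 7 probes lie in their transcripts is not known here.

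The scanner export held 46120 probes, with a median intensity of 70.8 to 96.4 per array and 12251 to 14530 probes detected per array. A probe was kept when its detection score passed 0.99 on at least 3 of the 18 arrays, which left 14664 probes. Arrays of the same group correlated at 0.982 to 0.995 over these probes. The labelled tissues differed in the direction of their markers for part of the lists: of 4 hippocampus markers measured, 3 were higher in control hippocampus than in control cortex, and of 10 cortex marker probes 4 were lower and 2 higher. Xist, a transcript of female cells, was high on 5 of the 18 arrays, of which 2 were CCH cortex, and low on all 6 control arrays, although every sample is labelled male. The values without those 5 arrays stand beside the results they touch.

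Of the 7 member probes 6 passed the detection filter. In each gene the probe whose level differed more between the hypoxia groups is called the varying probe below, and the other the steady probe. Steady is a label only: the steady Dctn4 probe was 0.19 lower in CIH than in CCH cortex, without overlap, as for 13.9% of all probes. Its log2 values also did not overlap between CIH and control cortex or between the control tissues. That was so for 12.5% and 26.8% of all probes. The steady Fgfr1op2 probe was mostly not above background. For Fgfr1op2 they are scl067529.7_122-S (varying) and scl067529.1_0-S (steady). A further Fgfr1op2 probe, scl0067529.1_155-S, was detected on 0 of 18 arrays at intensities of 61.3 to 87.6 and was left out. For Dctn4 they are scl0067665.1_200-S (varying) and scl067665.1_0-S (steady). For Txnl4a they are scl0027366.2_282-S (varying) and scl027366.4_62-S (steady). Intensities are given as exported. Changes are on the log2 scale after background correction and quantile normalization, and each carries its standard error from a limma fit over all 14664 probes and 18 arrays.

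**Figure D1:**
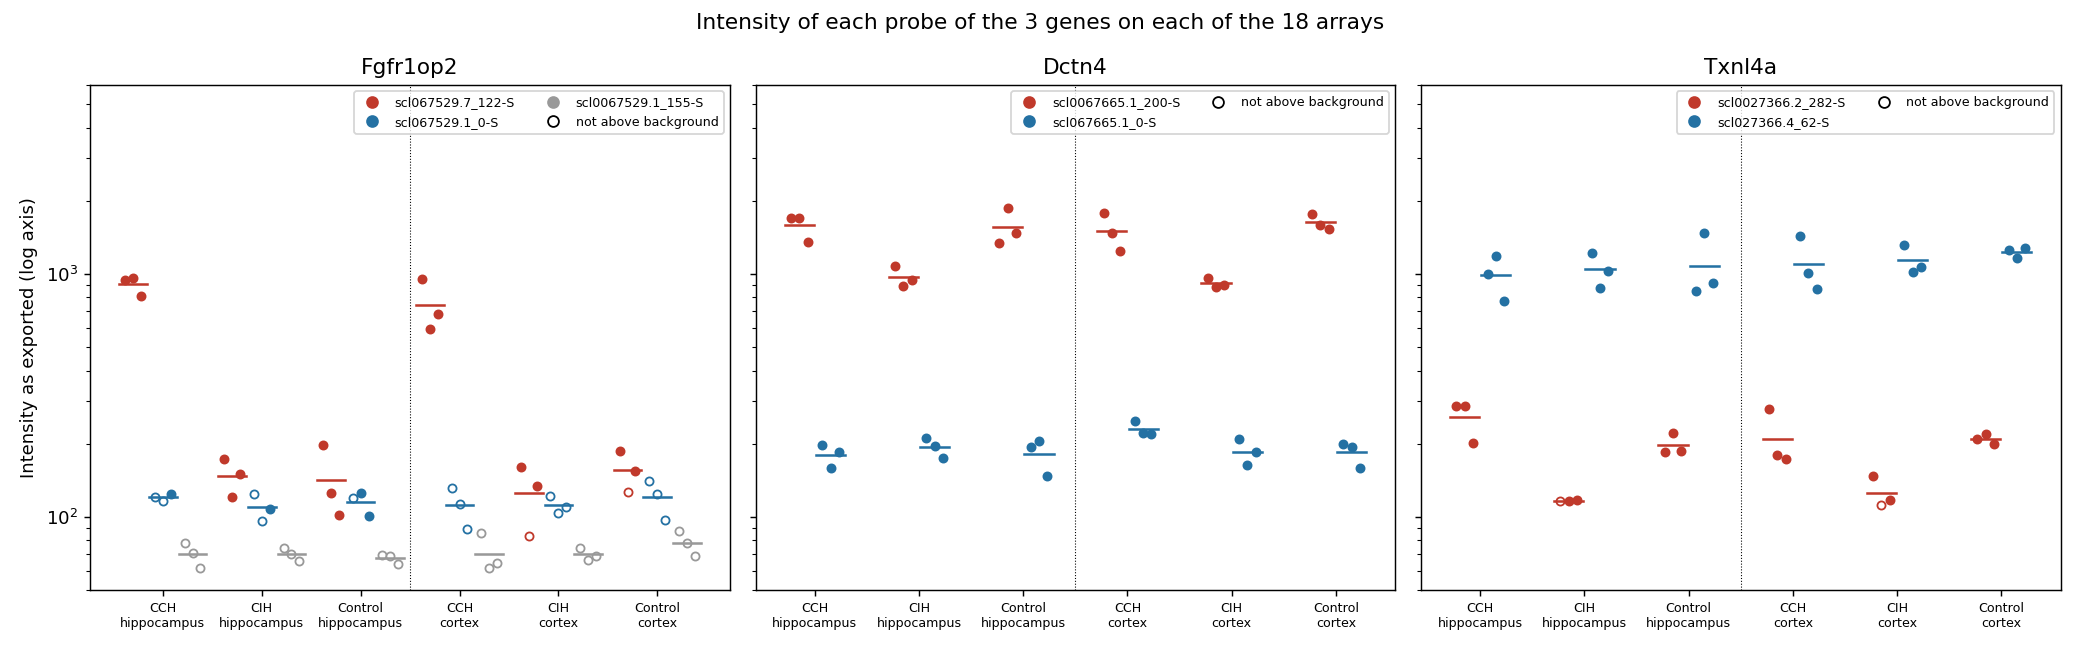
Exported intensity (log axis) of every probe of Fgfr1op2, Dctn4 and Txnl4a on each array, for CCH, CIH and control hippocampus and then CCH, CIH and control cortex, with a bar at the mean of 3 arrays and open circles where the probe was not above background. The varying probes (red) separate in CCH for Fgfr1op2 and in CIH for Dctn4 and Txnl4a, while the steady Fgfr1op2 probe (blue) is mostly open circles.

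The varying Fgfr1op2 probe was several times higher under CCH in both tissues and close to control under CIH. In hippocampus its intensity was 943.5, 964.8 and 808 in CCH, 172.1, 120.3 and 149.6 in CIH, and 197, 124.6 and 101.4 in control. In cortex it was 952.7, 592.7 and 682.8 in CCH, 159.9, 83.3 and 134.1 in CIH, and 186.3, 126.5 and 154.5 in control. All 6 CCH arrays lay above all 12 others, and CIH and control arrays overlapped in both tissues. CCH and control did not overlap for 12.2% of all 14664 probes in hippocampus and 15.1% in cortex.

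On the log2 scale the varying Fgfr1op2 probe stood 2.82 ± 0.12 (SE, n = 3 per group) above control in CCH hippocampus, a fold of 7.06, and 2.39 ± 0.12 above control in CCH cortex, a fold of 5.24. These were the largest change among 14664 probes in hippocampus and the 3rd largest in cortex. The probe is among the 76 probes (0.518%) at an adjusted p under 0.05 in CCH hippocampus and the 124 probes (0.846%) in CCH cortex, which is how the gene was chosen. CIH lay 2.82 below CCH in hippocampus and 2.49 below it in cortex.

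The control and CIH levels of the varying Fgfr1op2 probe lay near background: it was above background on all 3 CIH hippocampus and control hippocampus arrays, but on 2 of 3 in CIH cortex and 2 of 3 in control cortex. Without background correction the log2 differences were 2.58 in CCH hippocampus and 2.22 in CCH cortex.

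CIH lay close to control for the varying Fgfr1op2 probe, at −0.00 in hippocampus (95% interval −0.26 to 0.25) and −0.10 in cortex (−0.35 to 0.16). These values follow from the differences that chose the gene and carry no test, and this near to background a lower level under CIH would hardly show. Between control hippocampus and control cortex, a comparison that did not choose the gene, the difference was 0.02 (−0.24 to 0.27, limma adjusted p = 0.963) and did not pass the test.

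The steady Fgfr1op2 probe hardly carried a level to compare. It was above background on 4 of 18 arrays: 1 of 3 in CCH hippocampus, 1 of 3 in CIH hippocampus and 2 of 3 in control hippocampus, and on none of the 9 cortex arrays. Its intensity in hippocampus was 120.4, 116.1 and 124.3 in CCH, 124, 96.3 and 107.8 in CIH, and 119.3, 125.5 and 100.5 in control, with all 3 groups overlapping. In cortex it ran from 89.2 to 139.8 with no array above background, so no fold is given there.

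On the log2 scale the steady Fgfr1op2 probe stood 0.01 ± 0.04 from control in CCH hippocampus, beside 2.82 for the varying probe. A change of the transcript it reads that stays under background would not show in these values. In CIH hippocampus it stood at −0.04 (95% interval −0.12 to 0.04).

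The varying Dctn4 probe was lower under CIH in both tissues and close to control under CCH. In hippocampus its intensity was 1698.8, 1702.7 and 1354.3 in CCH, 1073.9, 893.7 and 944.5 in CIH, and 1340.3, 1868.3 and 1473 in control. In cortex it was 1788, 1468.2 and 1240.2 in CCH, 964.5, 881.2 and 902.7 in CIH, and 1768.4, 1590.7 and 1525.8 in control. Every CIH array lay below every CCH and control array, and CCH overlapped control in both tissues. Against control, groups without overlap were found for 9.48% of all 14664 probes in CIH hippocampus and 12.5% in CIH cortex. Between CIH and CCH they were found for 13.6% in hippocampus and 13.9% in cortex.

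The log2 difference of the varying Dctn4 probe from control was −0.79 ± 0.08 in CIH hippocampus and −0.78 ± 0.08 in CIH cortex, which puts CIH at 0.578 and 0.582 of control. It is among the 9 probes (0.0614%) at an adjusted p under 0.05 in CIH hippocampus and the 22 probes (0.15%) in CIH cortex, the comparisons that chose it. Against CCH the difference was −0.83 in CIH hippocampus and −0.81 in CIH cortex.

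CCH lay close to control for the varying Dctn4 probe, at 0.04 in hippocampus (95% interval −0.14 to 0.22) and 0.03 in cortex (−0.15 to 0.21). These values too follow from the differences that chose the gene. The probe differed by 0.13 between control hippocampus and control cortex (−0.05 to 0.31, limma adjusted p = 0.429), which did not pass the test.

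Myelin markers lay below control in CIH, as the varying Dctn4 probe did and the varying Txnl4a probe described next. All 9 measured of 13 listed were below 0 in both tissues (median −0.45 in CIH hippocampus and −0.35 in CIH cortex), 0 passed in limma, and 7 and 6 had an unadjusted p under 0.05. Their summed linear level was 5794 to 7562 in CIH hippocampus, against 7269.6 to 9431 in control hippocampus, and 7124 to 8955 in CIH cortex, against 9917 to 9995 in control cortex. In CCH the medians of these markers were −0.72 in hippocampus and −0.50 in cortex. There the varying Dctn4 probe was at 0.04 and 0.03 and the varying Txnl4a probe at 0.30 and 0.03. The part of the myelin markers in the CIH values was not tested.

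The steady Dctn4 probe, unlike that of Fgfr1op2, was above background on all 18 arrays. In hippocampus its intensity was 197.5, 158.1 and 184.5 in CCH, 210.1, 195.2 and 173.8 in CIH, and 193.2, 205 and 147.4 in control, with the groups overlapping. In cortex it was 248.6, 221.4 and 219.5 in CCH, 209.1, 162.7 and 184.6 in CIH, and 198.3, 194 and 159.4 in control, with all CCH arrays above all others. Its log2 difference from control was 0.02 ± 0.06 in CIH hippocampus and 0.07 ± 0.06 in CIH cortex, where the varying probe was lower by 0.79 and 0.78.

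In CCH cortex the steady Dctn4 probe was 0.26 ± 0.06 above control (95% interval 0.14 to 0.38), with 3 of 3 arrays above every control array. The share of all probes whose CCH and control cortex arrays did not overlap is the 15.1% given above. Without the 5 arrays high in Xist, which leaves 1 CCH cortex array, it was 0.14. It stood at −0.01 in CCH hippocampus and differed by 0.09 between control hippocampus and control cortex (limma adjusted p = 0.401).

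The varying Txnl4a probe was also lower under CIH in both tissues. In hippocampus its intensity was 285.4, 284.4 and 201.2 in CCH, 115.9, 115.6 and 116.6 in CIH, and 185.1, 221.6 and 187.1 in control. In cortex it was 277, 180.1 and 172.2 in CCH, 147.3, 112 and 117.3 in CIH, and 208.5, 218.4 and 199.2 in control. Every CIH array lay below every CCH and control array of its tissue, and the probe was above background on 2 of 3 arrays in each CIH group and on all others.

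On the log2 scale the varying Txnl4a probe lay 0.43 below control in CIH hippocampus (difference −0.43 ± 0.09) and 0.32 below control in CIH cortex (−0.32 ± 0.09). CCH hippocampus lay 0.30 ± 0.09 above control with overlapping arrays, and CCH cortex 0.03 ± 0.09. The distance from CIH to CCH was therefore the widest, at −0.73 in hippocampus, and was −0.35 in cortex. These groups without overlap stand beside the same shares of all probes as for Dctn4.

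The size of the Txnl4a change depended on the background correction. Without it the varying probe was at −0.75 in CIH hippocampus and −0.57 in CIH cortex. The direction was the same under both. Without the 5 arrays high in Xist its value in CCH hippocampus was 0.41, as it was without the 3rd CCH hippocampus array alone.

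The steady Txnl4a probe was above background on all arrays, with intensities of 769.7 to 1478.8. In hippocampus it averaged 985 ± 210 in CCH, 1043 ± 176 in CIH and 1082 ± 346 in control (SD, n = 3 each). In cortex it averaged 1102 ± 295 in CCH, 1137 ± 161 in CIH and 1231 ± 61.7 in control. The groups overlapped in every comparison, and the log2 differences from control were −0.12, −0.07, −0.04 and 0.01, each with an SE of 0.14, in CCH hippocampus, CIH hippocampus, CCH cortex and CIH cortex.

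Over all genes with several probes, the distance between the probes' log2 changes was mostly small. The 393 genes gave 462 probe pairs, and the median distance was 0.0807 in CCH hippocampus, 0.0796 in CIH hippocampus, 0.0955 in CCH cortex and 0.0852 in CIH cortex. In each pair it was fitted as the log2 difference between both probes on an array. In the control tissues, where 11.7% of probes differed at an adjusted p under 0.05, both probes passed in 23 pairs and had the same direction in 23.

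The fitted steady minus varying distance of Fgfr1op2 was −2.81 ± 0.13 in CCH hippocampus, where the steady probe was above background on 1 of 3 CCH and 2 of 3 control arrays, so it is not a distance between measured levels, and none is given for cortex. The widest distances of other genes were 1.12 in CCH hippocampus and 1.31 in CCH cortex. The varying minus steady distance of Dctn4 was −0.81 ± 0.11 in CIH hippocampus, 2nd of the pairs, and −0.85 ± 0.11 in CIH cortex, the largest. Fgfr1op2 in CCH and Dctn4 in CIH are the single pair of 462 (0.216% in all 4 comparisons) at an adjusted p under 0.05, which repeats the choice of the genes.

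The varying minus steady distance of Txnl4a was smaller and sat lower in the order of pairs. It was 0.42 ± 0.11 in CCH hippocampus, 14th, and −0.36 ± 0.11 in CIH hippocampus, 10th. In cortex it was 0.07 in CCH and −0.33 in CIH, 288th and 31st. Between CIH and CCH it reached −0.78 in hippocampus, 4th, and −0.40 in cortex, 20th.

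For Dctn4 the distance was 0.05 in CCH hippocampus and −0.23 in CCH cortex, again given without a test. Between control hippocampus and control cortex, where 0.866% of pairs passed, that of Dctn4 was 0.04 (limma adjusted p = 0.932) and did not pass.

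**Figure D2:**
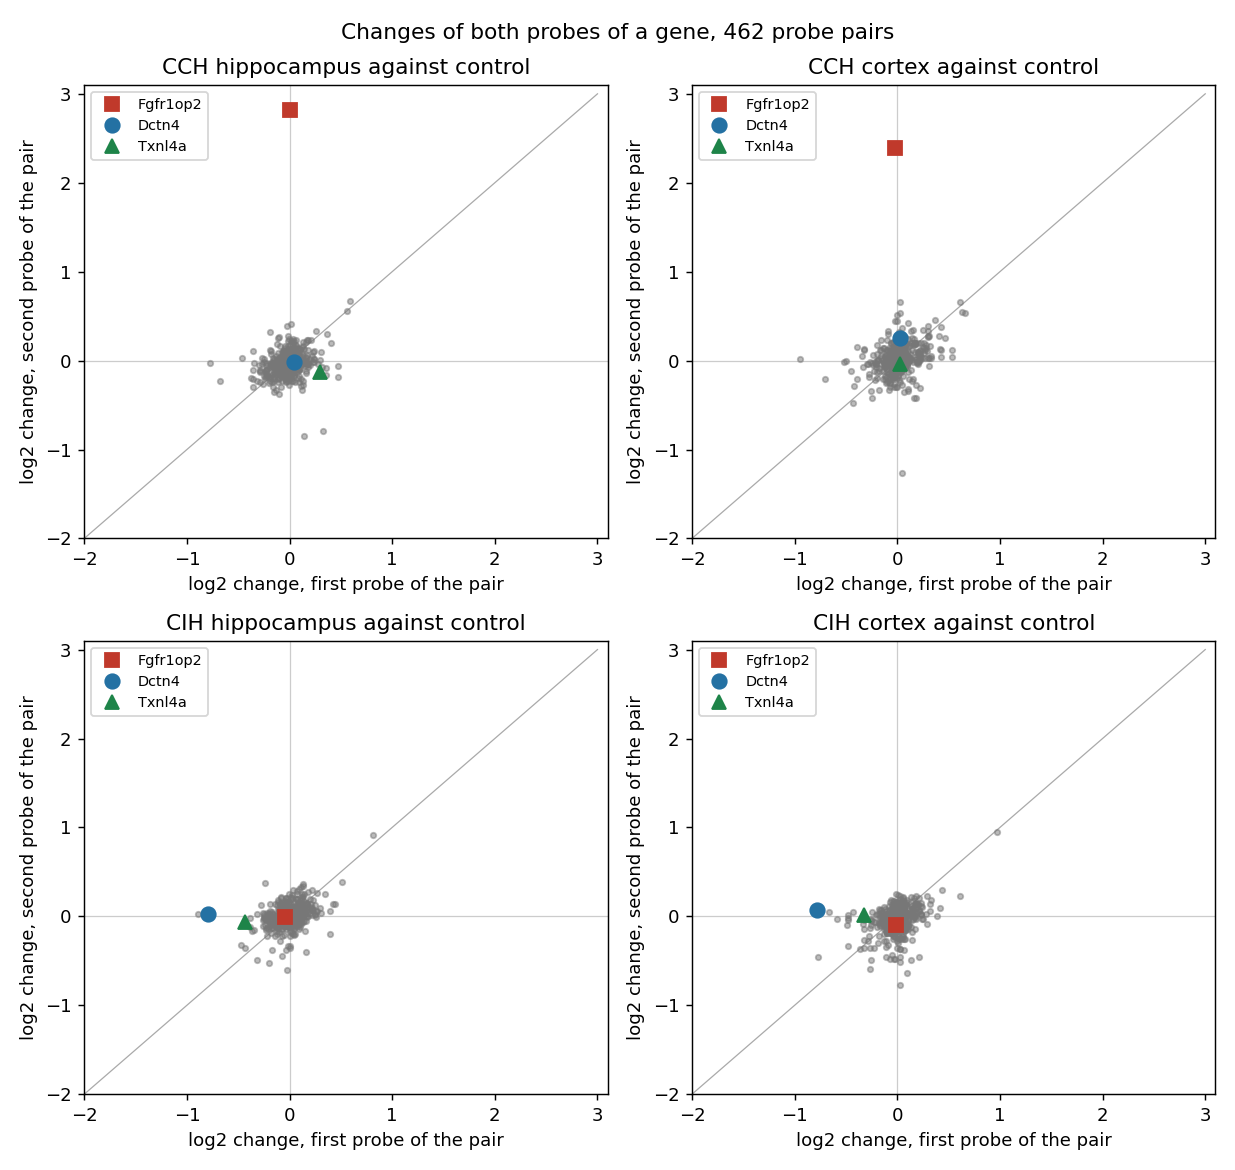
Log2 change against control of both probes of each of 462 probe pairs, in CCH (top row) and CIH (bottom row), hippocampus on the left and cortex on the right; the diagonal marks equal changes and the first probe is the first by identifier. Fgfr1op2 lies far above the cloud in both CCH panels at 2.82 and 2.39 on the vertical axis, with its horizontal value from the steady probe, which is mostly not above background, Dctn4 lies left of it in both CIH panels at −0.79 and −0.78, and Txnl4a lies at its edge in CIH.

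The arrays were hybridized on 3 slides, each with 1 array of every group, so each hypoxia array could be set against the control array of its slide. The varying Fgfr1op2 probe was higher by 2.60, 2.98 and 2.88 in CCH hippocampus and by 2.46, 2.21 and 2.50 in CCH cortex. The varying Dctn4 probe differed by −0.54, −0.78 and −1.05 in CIH hippocampus and by −0.92, −0.69 and −0.74 in CIH cortex. All 12 differences had the direction of their group means, which was fixed in advance because these groups did not overlap.

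The varying Txnl4a probe differed by −0.36, −0.38 and −0.55 in CIH hippocampus and by −0.22, −0.38 and −0.36 in CIH cortex. In CCH hippocampus it differed by 0.51, 0.48 and −0.11, so the higher CCH mean came from 2 of 3 slides. The steady Dctn4 probe in CCH cortex was higher by 0.14, 0.24 and 0.40. The directions of these and of the Txnl4a differences in CIH were fixed in advance as well, because those groups did not overlap.

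**Figure D3:**
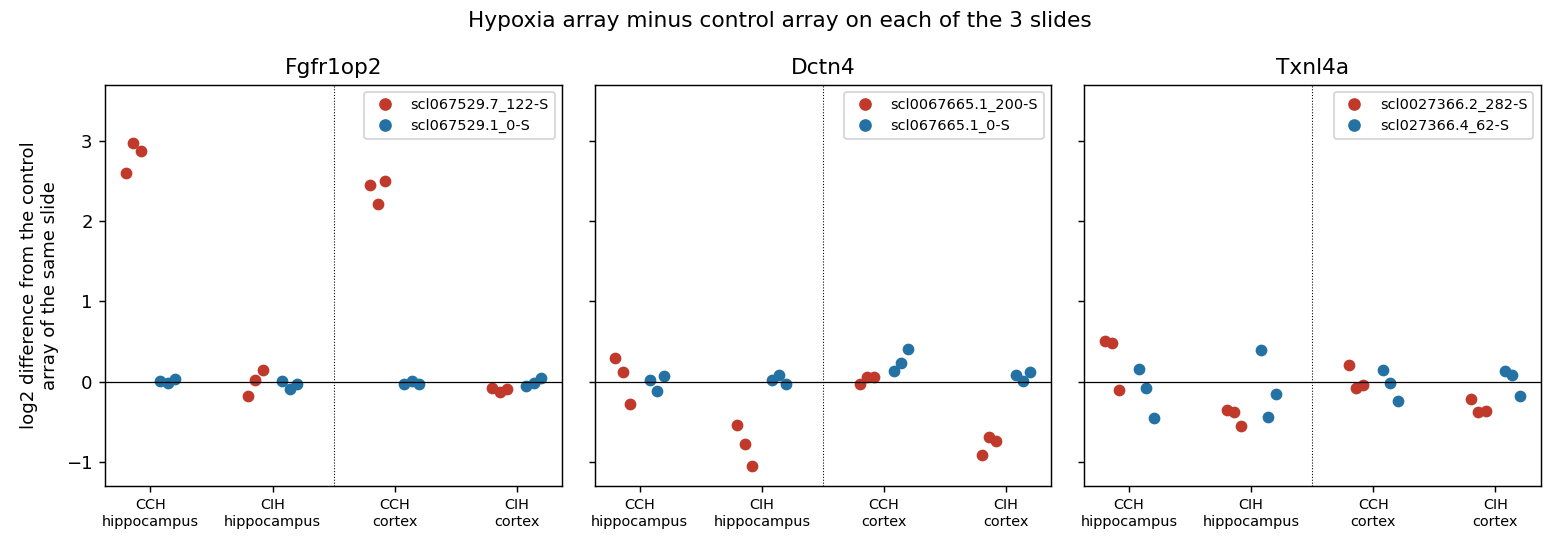
Log2 difference between a hypoxia array and the control array of the same slide, for the varying (red) and the steady (blue) probe of each gene, 3 slides per group. Red points keep 1 sign in CCH for Fgfr1op2 and in CIH for Dctn4 and Txnl4a, and the blue points scatter about 0, with all 3 above it for Dctn4 in CCH cortex and CIH cortex. The signs named here were fixed in advance, because those groups did not overlap with control.

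Both probes of a pair are read on the same array and so share its sample, slide and tissue. Pearson's r between the varying and the steady probe was 0.12 for Fgfr1op2, 0.053 for Dctn4 and 0.030 for Txnl4a, where the median of all pairs was 0.327 and the lower quartile 0.041. Low values are in part what the choice of the genes fixes, and the steady Fgfr1op2 probe was not above background on most arrays. After the mean of each group was removed, r was −0.35 for Fgfr1op2, −0.16 for Dctn4 and 0.63 for Txnl4a, beside a median of 0.177. The Txnl4a value lies above the upper quartile of 0.469.

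The 3 named probes most like the varying Fgfr1op2 probe over the 18 arrays read Acer2, an alkaline ceramidase (r = 0.956), Hbb-b1, a beta globin chain (0.924), and Nat8f4, of an acetyltransferase family (0.865), out of 4400. With group means removed Hbb-b1 had an r of 0.943, the highest of the 4400, and Acer2 −0.10. Vbp1 and Hspd1, neither of them a globin, followed closely at 0.942 and 0.932, so this likeness was not particular to Hbb-b1. The likeness to Acer2 was thus one of group means: Acer2 stood at 9.49, 7.50 and 7.29 in CCH, CIH and control hippocampus on the log2 scale, and at 9.45, 7.82 and 7.21 in CCH, CIH and control cortex.

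Hbb-b1 followed the varying Fgfr1op2 probe inside the groups as well, and the measured erythroid markers were higher in CCH. Of 6 such genes listed 3 were measured, Hba-a1, Hbb-b1 and Hbb-b2, all globins. All 3 were above control in CCH hippocampus and in CCH cortex (median log2 change 1.26 in each). In limma 3 of 3 passed in CCH hippocampus and 2 of 3 in CCH cortex, where 0.518% and 0.846% of all probes passed. Hbb-b2, at 1.34 in CCH cortex, did not pass there (limma adjusted p = 0.0841). The medians were 0.55 in CIH hippocampus and 0.13 in CIH cortex. In CIH 0 passed and 1 of 3 had an unadjusted p under 0.05 in each tissue. The summed linear level of the 3 ran from 14878 to 17180 in CCH hippocampus, 8593 to 10140.3 in CIH hippocampus and 5768 to 8188 in control hippocampus. In cortex it ran from 21210.4 to 23717 in CCH, 11685 to 12656 in CIH and 7888 to 11165 in control.

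With group means removed, r with the varying Fgfr1op2 probe was 0.830 for Hbb-b2 and 0.423 for Hba-a1, which ranked 124th and 789th of the 4400 named probes. Their part in the Fgfr1op2 values was not tested, and in bulk tissue more blood cells and more RNA per cell cannot be told apart. In CIH hippocampus Hba-a1, Hbb-b1 and Hbb-b2 were 0.55, 0.14 and 0.66 above control, where the Fgfr1op2 probe was at −0.00. In CIH cortex they were 0.41, 0.04 and 0.13 above control, where it was at −0.10. None of these globin values passed the test. Endothelial markers were also higher in CCH: of 9 listed 3 were measured, with medians of 0.46 in CCH hippocampus and 0.39 in CCH cortex, where 0 and 1 passed and 3 of 3 had an unadjusted p under 0.05 in each tissue, beside medians of 0.02 and 0.07 in CIH hippocampus and CIH cortex. Their summed linear level was 782 to 885 in CCH, 579 to 624 in CIH and 552 to 722 in control hippocampus, and 883 to 971 in CCH, 684 to 714 in CIH and 670.0 to 685 in control cortex.

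Myelin markers were lower in CCH as well, where all 9 measured were below 0 in both tissues (medians −0.72 in hippocampus and −0.50 in cortex). In limma 5 of 9 passed in CCH hippocampus and 3 of 9 in CCH cortex, where 0.518% and 0.846% of all probes passed. Their summed linear level was 4396 to 6342 in CCH hippocampus and 7299.7 to 8029.8 in CCH cortex, beside the control levels given above. The part of the endothelial and myelin markers in the Fgfr1op2 values was not tested.

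The 3 named probes most like the varying Dctn4 probe read Pop4, a protein subunit of ribonuclease P and MRP (r = 0.953), Fstl5, a follistatin-like protein (0.878), and Txnl4a through its own varying probe (0.876). Those most like the varying Txnl4a probe read Dctn4 (0.876), Mt1, a metallothionein that binds zinc and copper (0.815), and Pop4 (0.807). The varying probes of Dctn4 and Txnl4a are therefore among the 3 named probes most like each other. Both were lower in CIH, and the members were chosen by changes of their probes, so the choice in part fixes this likeness. With group means removed their r was 0.55, and neither was then among the 3 named probes most like the other. The r of Dctn4 with Pop4 was then 0.78 and with Fstl5 −0.22.

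Pop4 stood at 9.04, 7.62 and 9.27 in CCH, CIH and control hippocampus on the log2 scale, and at 8.86, 7.76 and 9.04 in CCH, CIH and control cortex, with CIH lowest in both tissues, as for the varying Dctn4 probe. Mt1 stood at 13.64, 13.02 and 13.33 in CCH, CIH and control hippocampus and at 13.51, 12.90 and 13.23 in CCH, CIH and control cortex. This is the order of the group means of the varying Txnl4a probe, CCH above control and control above CIH. The CCH and control arrays of that probe overlapped in both tissues, with a difference of only 0.03 ± 0.09 in cortex. Mt1 was named for its likeness to that probe, so a shared order is in part built in.

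**Figure D4:**
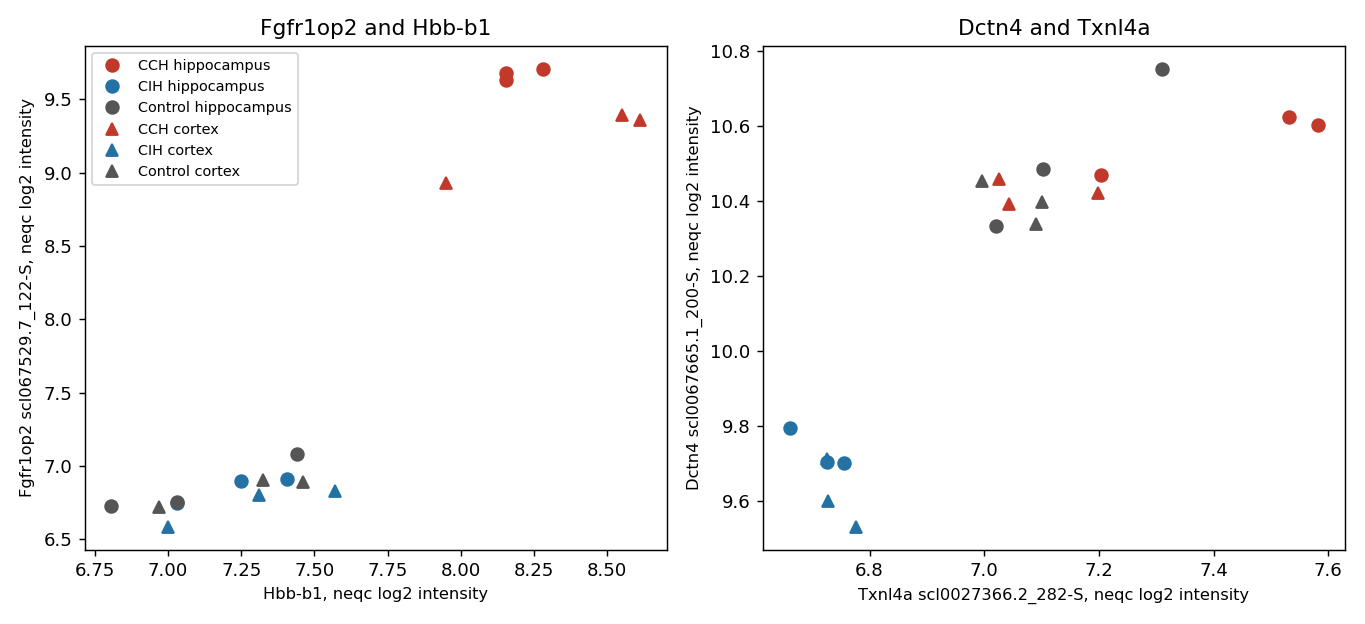
Background-corrected, quantile-normalized log2 intensity on the 18 arrays of the varying Fgfr1op2 probe against Hbb-b1 (left, r = 0.924) and of the varying Dctn4 probe against the varying Txnl4a probe (right, r = 0.876), with circles for hippocampus and triangles for cortex. The 6 CCH arrays stand apart at the upper right for Fgfr1op2, and the 6 CIH arrays stand apart at the lower left for Dctn4 and Txnl4a.

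The steady probes resembled other genes. Those most like the steady Txnl4a probe read Zeb1 (r = 0.835) and Ppargc1b (0.812), both on chromosome 18, and Slk (0.788) on chromosome 19, where 3.02% of named probes lie on chromosome 18. With group means removed, their r was 0.852 for Zeb1, 0.803 for Ppargc1b and 0.847 for Slk, so the likeness stayed. The 3 named probes then most like the steady Txnl4a probe were others, on chromosomes 8, 7 and 19. Zeb1 encodes a zinc-finger transcription factor, Ppargc1b a coactivator of mitochondrial genes and Slk a Ste20-like kinase. Those most like the steady Dctn4 probe read the small GTPase Rhoa (0.811), the mitochondrial ribosomal protein Mrps26 (0.772) and the cohesin loader Mau2 (0.765). These lie on chromosomes 9, 2 and 8, though Dctn4 too is on chromosome 18. For the steady Fgfr1op2 probe, mostly below background, they read Slc25a39 (0.720), Edrf1 (0.702) and Clip4 (0.702).

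Few partners of the members in their complexes were measured, and none of these passed the test against control. Of 84 genes in lists of STRIPAK, dynactin, dynein and its regulators, the U5 and tri-snRNP particles and the Sm and LSm rings, members included, 26 other genes were measured by 29 probes. In limma 0 of these 29 passed in any of the 4 comparisons with control, and 1 in CCH hippocampus, 2 in CIH hippocampus, 4 in CCH cortex and 1 in CIH cortex had an unadjusted p under 0.05. Over all 14664 probes 0.518%, 0.0614%, 0.846% and 0.15% passed in these comparisons, and 1231, 937, 1587 and 935 probes had an unadjusted p under 0.05, so 0 of 29 is close to what these shares give. Coverage was thin: besides the members, 5 STRIPAK genes of a list of 20 and 2 dynactin genes of a list of 12 were measured, with the member counted in each list.

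For STRIPAK the largest values by gene were 0.45 for Ppp2r1a, a scaffold subunit of its phosphatase, in CCH cortex (limma adjusted p = 0.461) and −0.23 for Ppp2r1b, the other such scaffold, in the same group (limma adjusted p = 0.486). The list's median was −0.02 in CCH hippocampus and 0.02 in CCH cortex, beside −0.00 over all probes in both. No STRIPAK probe came near the 2.82 and 2.39 of the varying Fgfr1op2 probe.

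In dynactin, Actr10, the Arp11 protein of the same pointed end as Dctn4, was at 0.26 in CIH hippocampus (limma adjusted p = 0.774) and 0.19 in CIH cortex (limma adjusted p = 0.893). Dctn2, the dynamitin subunit, had 2 probes, at −0.06 and 0.01 in CIH hippocampus and at 0.07 and 0.04 in CIH cortex, and its largest value was −0.15, in CCH hippocampus. In CIH both of its probes lay close to each other and to 0, where the varying Dctn4 probe was at −0.79 and −0.78. Among dynein genes the largest was Dynll1, a light chain, at 0.33 in CIH hippocampus (limma adjusted p = 1.0) and −0.31 in CIH cortex (limma adjusted p = 0.959). Pafah1b1, the Lis1 regulator of the motor, had a probe at −0.28 in CIH cortex (limma adjusted p = 0.956). Nde1, another regulator of dynein, was higher in control hippocampus than in control cortex by 0.29 (limma adjusted p = 0.0167).

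Among the partners of Txnl4a, all 4 measured genes of the U5 and tri-snRNP list were below 0 in CIH hippocampus (median −0.10, lowest −0.15) and 3 of 4 above 0 in CIH cortex (median 0.01). The largest values by gene were 0.30 for Ppih, a cyclophilin of the tri-snRNP, in CCH hippocampus (limma adjusted p = 0.773) and −0.16 for Usp39, which helps to assemble the tri-snRNP, in CCH cortex (limma adjusted p = 0.561). In the Sm and LSm rings Lsm7 was at 0.42 in CCH cortex (limma adjusted p = 0.167) and Lsm3 at 0.31 in CCH hippocampus (limma adjusted p = 0.734). The medians of the rings were 0.12 in CIH hippocampus and 0.10 in CIH cortex, opposite in sign to the varying Txnl4a probe.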

How the data were processed

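Total RNA (100 ng per sample) was hybridized to Illumina bead arrays. For each array and probe the authors deposited an intensity that was not normalized, a detection score, a bead number and a spread between beads, per the file headers. That spread was 2.22 to 10.2% of the member probes' intensity, and whether it is a standard deviation or a standard error is not known. The submitters' processing notes name BeadStudio 2.0, and the header names 1.5.1.3. The deposited series values, in 17 of 18 columns the intensity minus a constant, served as an alternative. The 72 further per-sample columns were not used.

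Background correction (from detection p, offset 16), log2 and quantile normalization used limma's neqc (limma 3.58.1, R 4.3.3). Probes scoring above 0.99 on at least 3 arrays were kept, without ribosomal RNA probes, and the 6 group means were fitted with limma, two-sided, with Benjamini-Hochberg adjustment at 0.05. An exact permutation test of 3 against 3 could not go below 0.1. Identifiers were read as NCBI gene numbers: 81.1% of 10024 matched a mouse gene, against 45.9% after a shift by 1. The members and lists were chosen with earlier results of these data known. Named genes were the members, the 3 named probes most like each member probe, the 5 other genes with the widest distance per comparison, and the called genes and 2 largest changes per list; 1 of these is not reported here. Likeness with group means removed was added after the data were seen.

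The hybridization log ties replicate numbers to slides. With group means removed, r passed 0.1 for 31 of the 45 array pairs with the same number in different groups (median 0.226) and for 17 of the 90 with different numbers (median −0.0966), and blocked values are given with the alternatives. Slide position is fixed by group and cannot be told apart from it. The design text calls the CIH mice CCH treated, and the titles were followed. Precision is limited by 3 arrays per group.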

Additional observations from a re-analysis of the deposited data

Results flagged for a closer look

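Xist, which lies outside the measurements compared here, was above the control arrays on 5 of the 18 arrays, at 9.36 to 10.2 on the log2 scale, where the other 13, among them all 6 controls, were at 6.53 to 6.57. The 5 arrays were CCH hippocampus 3, CIH hippocampus 2, CCH cortex 2 and 3 and CIH cortex 2. Without them the varying Fgfr1op2 probe was still 2.84 above control in CCH hippocampus and 2.52 in CCH cortex, and the varying Dctn4 probe −0.78 in CIH hippocampus and −0.83 in CIH cortex.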

How the results depend on the processing

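Of the members' values under other settings, leaving out an array aside, 336 of 357 counted as the same. For Fgfr1op2 in CIH against control, Dctn4 in CCH against control and both genes between the control tissues, this meant the same limma call. For the rest it meant a size within 1 SD. The CIH and CCH calls served this count only. Direction was not required, and values near 0 could change sign. The varying Dctn4 probe in CCH hippocampus, for example, went from 0.04 to −0.08 with median centring. Another 20 moved. The remaining 1, the steady Dctn4 probe in CCH cortex with median centring, went from just above the threshold of 0.05 to just below it. Its log2 change was 0.26 in both fits. None reversed as a called value. Over the 18 fits without 1 array, 1129 of 1134 counted as the same by this rule. The slide as a replicate block changed none of the member calls scored in this count. The comparisons that chose the genes and all those of Txnl4a had no scored call. With the block 95, 10, 173, 23 and 1905 probes were called in CCH hippocampus, CIH hippocampus, CCH cortex, CIH cortex and the control tissues. Of these 69, 9, 112, 16 and 1658 are called in both fits. In the control tissues 14 pairs passed with the block against 4 without it. For the changes below the cause was not tested, except that filters and fewer arrays change what is fitted. Without background correction 27 probes and 2 pairs passed in CIH hippocampus, 45 probes and 2 pairs in CIH cortex and 0 pairs in the control tissues; the varying Txnl4a probe was at −0.75 in CIH hippocampus, −1.08 against CCH there, −0.57 in CIH cortex and −0.61 against CCH there, and the varying Fgfr1op2 probe at 2.58 in CCH hippocampus and 2.22 in CCH cortex. With median centring 145 probes passed in CCH hippocampus and 2 pairs in the control tissues. Among probes detected on all 18 arrays (291 pairs, without Fgfr1op2 and Txnl4a) 0 pairs passed in CCH hippocampus, CCH cortex and the control tissues. Without a detection filter (1915 pairs) 6, 3, 7, 6 and 35 pairs passed in CCH hippocampus, CIH hippocampus, CCH cortex, CIH cortex and the control tissues, with 72 probes in CCH cortex and 6 in CIH cortex. On the 13 arrays low in Xist 41, 3, 743 and 3 probes passed in CCH hippocampus, CIH hippocampus, CCH cortex and CIH cortex, and 20 pairs in CCH cortex, where 1 CCH array is left and assumed to vary like the others; the varying Txnl4a probe was at −0.85 in CIH against CCH hippocampus. In the deposited series values (131 pairs, of the members only Dctn4 varying and Txnl4a steady) 50, 16, 56, 14 and 828 probes and 0, 0, 0, 0 and 1 pairs passed in the same order with the control tissues last. Leaving out each array in turn gave 52 to 126 probes in CCH hippocampus (fewest without control hippocampus 2, most without control hippocampus 1), 8 to 52 in CIH hippocampus (most without control hippocampus 1), 62 to 149 in CCH cortex (fewest without control cortex 1), 4 to 36 in CIH cortex (fewest without CIH cortex 1, most without CCH cortex 1) and 1219 to 1939 in the control tissues; pairs numbered 1 to 3, 1 to 1, 1 to 2, 1 to 2 and 1 to 9. The same fits gave −0.89 to −0.68 for the varying Dctn4 probe in CIH hippocampus and −0.84 to −0.65 for the varying Txnl4a probe in CIH against CCH hippocampus. The steady Dctn4 probe in CCH cortex was at 0.21 (without CCH cortex 3) to 0.32 (without CCH cortex 1) in them. Signal near background limits both Fgfr1op2 probes and the varying Txnl4a probe.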

Other observations

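Other genes also had probes that moved apart, though none of their pairs passed the test in a hypoxia comparison (limma, where 18 to 30 of all 462 pairs per comparison had an unadjusted p under 0.05). Those below are among the 5 other genes with the widest distance in a comparison with control. Eif4e2, a cap-binding protein, came closest: its second probe by identifier was at −0.60 in CIH hippocampus and −0.64 in CIH cortex while its first was at −0.02 and 0.09. The distance was 0.58 (limma adjusted p = 0.293) and 0.73 (limma adjusted p = 0.0836).

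Ehmt1, a histone H3 methyltransferase, had 1 probe at −0.77 in CCH hippocampus, −0.89 in CIH hippocampus, −0.95 in CCH cortex and −0.66 in CIH cortex, while its other probe stayed between −0.03 and 0.05. The standard error of this distance was 0.55, and the smallest adjusted p over the 4 comparisons was 0.781. Cdc37l1, a co-chaperone of Hsp90, had a distance of 1.12 ± 0.29 in CCH hippocampus (limma adjusted p = 0.214), and Btbd3, which guides the orientation of dendrites in sensory cortex, had 0.66 ± 0.18 there (limma adjusted p = 0.214). Ctsb, a lysosomal protease, had the widest distance of any other gene in CCH cortex, 1.31, with a standard error of 1.18. Tmed4, Mpc2, Hsp90ab1 and Rps9 had distances of 0.52 to 0.79 in the comparisons that named them.

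Between control hippocampus and control cortex 4 pairs passed, those of Gucy1a1 (−0.99 ± 0.15), Eif4e3 (0.60 ± 0.11), Vmp1 (0.50 ± 0.09) and Osbpl6 (0.47 ± 0.10), named after their values were seen. Gucy1a1 encodes a subunit of the nitric oxide receptor guanylate cyclase.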
